A study of Mus musculus with 6 samples.

Results

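The EGF and FGF receptors were described in mouse glioblastoma (GBM) neurospheres, floating tumour cell cultures fed with the 2 growth factors that these receptors bind. The list held 8 genes, the ErbB receptors Egfr, Erbb2, Erbb3 and Erbb4 and the FGF receptors Fgfr1 to Fgfr4. The list was drawn up by receptor family, with earlier results of these data known, and its rule used no measured value. Of its genes, 6 of the 8 were rows among the 13069 genes of the expression table. Erbb3 and Fgfr4 were not analysed here. Of the 6, 4 (Egfr, Erbb2, Fgfr1 and Fgfr3) passed a filter on low values and were tested, and Erbb4 and Fgfr2 are given by their values in every library.

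The study set 3 RNA-seq libraries labelled ATRX knockout (ATRX KO, line code C54B) against 3 labelled ATRX wild type (ATRX WT, line code C39E). ATRX is a chromatin remodeller that is lost in a class of gliomas, and the question, as the series title puts it, concerns how its loss disturbs the control of cell cycle transitions. Per the labels, tumours were begun in neonatal C57BL/6 or FVB mice by putting Sleeping Beauty transposon plasmids into the brain ventricles. Both genotypes carried a short hairpin against p53 and an NRAS expression plasmid, and the ATRX-deficient tumours a short hairpin against ATRX, so the labels use both hairpin and knockout for the same cells. The strain of each line is not given. Each genotype was a single line code, so the effects of genotype and of line cannot be told apart, and although the libraries are described as biological replicates, the p-values measure only the spread between libraries of 1 line. The cultures were kept in a medium for neural stem cells holding B-27 and N-2, to which EGF and FGF were added as stocks of 20 ng/uL each.

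ErbB receptors are tyrosine kinases that pair on binding EGF-like ligands. Egfr binds EGF itself, Erbb2 has no known soluble ligand and serves as the favoured partner of the others, and Erbb4 binds neuregulins. FGF receptors bind FGFs together with heparan sulfate chains, and both families signal through adaptors to RAS and ERK, which in turn raise feedback inhibitors such as the Sprouty proteins. In the brain, Egfr and Fgfr3 mark neural progenitors and astroglia, Fgfr2 is a glial receptor, and Fgfr1 is found in neural stem cells as well as in mesenchyme. EGFR is the receptor most often amplified in human glioblastoma, and NRAS, which drove these tumours, acts downstream of all of these receptors.

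Reads in the table numbered 22177228 to 32477269 for the ATRX KO libraries and 34966108 to 38039847 for the ATRX WT ones. Levels are given as RPKM, which corrects reads for gene length and library size. The RPKM values were rebuilt from whole reads, and log2 RPKM values are the deposited ones, which hold a small prior count. Within each group libraries are given in the order of replicates 1 to 3. Atrx itself measured 14.1, 16.6 and 17.1 RPKM in the ATRX KO libraries and 22.3, 22.7 and 21.5 RPKM in the ATRX WT ones (log2 difference -0.48, SE 0.07, limma adjusted p = 0.00013). The groups did not overlap, but transcript was present in every library labelled knockout. Tests used limma across 12201 genes with Benjamini-Hochberg adjustment, and "rose" or "fell" means ATRX KO against ATRX WT past an adjusted p of 0.05. Of all genes tested 89.5% passed, 43.6% as rises and 45.9% as falls, so a call by itself sets no gene apart. The median log2 difference over all tested genes was -0.02, and their median absolute difference 0.68.

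Markers of cell type moved with the groups by far more than most receptors. Of the 8 oligodendrocyte precursor markers listed, 7 were tested, 5 fell and 2 rose. Their summed level was 407 to 422 RPKM in ATRX WT and 40.8 to 44.4 RPKM in ATRX KO, where the lineage factor Olig1 had 0 reads and Olig2 had 2. The 2 that rose were Pdgfra, from 3.40 to 31.5 RPKM, and Cspg4, from 2.51 to 10.5 RPKM. They made up nearly all of the ATRX KO sum. Of 9 astrocyte markers 6 were tested, 5 fell and 1 rose, with summed levels of 386 to 393 RPKM against 175 to 181 RPKM and Mlc1 at 0 reads in ATRX KO. The rise was Gja1, from 15.3 to 144 RPKM, which made up most of the ATRX KO sum. All 7 neuronal genes tested of 9 fell (183 to 189 RPKM summed against 7.76 to 8.44, Dcx at 0 reads), and of 9 neural stem cell genes tested of 10, 8 fell and 1 rose (4801 to 4917 RPKM summed against 1115 to 1123). The stem cell gene that rose was Sox9, from 31.0 to 62.6 RPKM. Most of the stem cell sum was Fabp7 (2757 RPKM) and Vim (1868 RPKM) in ATRX WT, and Vim (1008 RPKM) in ATRX KO. All 8 mesenchymal genes tested of 10 rose, from a sum of 7.67 to 7.99 RPKM in ATRX WT to 1577 to 1728 RPKM in ATRX KO. Below the filter, Thy1 was lower in ATRX KO (0.621 RPKM against 1.09 in ATRX WT) and Col1a2 higher (0.623 against 0.0435). Against the label of GBM neurospheres, ATRX WT held the neural and glial markers, whereas in ATRX KO most of them were low and most mesenchymal genes high. Both endothelial genes tested of 6, and both microglial genes tested of 8, also rose, to sums of 14.4 to 16.4 and 30.6 to 35.1 RPKM. The endothelial gene Kdr, below the filter, was lower in ATRX KO (0.242 RPKM against 0.293 in ATRX WT). Many of the marker genes passed the filter only through the group where they were high, so the counts of rises and falls carry no weight. Mean log2 RPKM reached 0 in ATRX WT for 1 of 8 tested mesenchymal, 0 of 2 endothelial and 1 of 2 microglial genes. In ATRX KO it did so for 2 of 7 oligodendrocyte precursor, 2 of 7 neuronal, 3 of 6 astrocyte and 4 of 9 neural stem cell genes. The part of any of these cell states in the receptor differences was not tested, and in bulk RNA fewer cells of a type and less RNA per cell cannot be told apart.

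The promoters of 4 receptors are shown so that the 3 genes lower in ATRX KO (Egfr, Erbb4 and Fgfr3) can be read beside Erbb2, which was higher. Each is the RefSeq window (GRCm38.p6) from 250 bases before to 50 bases after the gene's start, 5′ to 3′ on the gene's own strand. Capitals mark the GC box GGGCGG, the site preferred by factors of the Sp1 family, or its reverse complement CCGCCC.
Egfr (chr11:16751953-16752252, plus strand): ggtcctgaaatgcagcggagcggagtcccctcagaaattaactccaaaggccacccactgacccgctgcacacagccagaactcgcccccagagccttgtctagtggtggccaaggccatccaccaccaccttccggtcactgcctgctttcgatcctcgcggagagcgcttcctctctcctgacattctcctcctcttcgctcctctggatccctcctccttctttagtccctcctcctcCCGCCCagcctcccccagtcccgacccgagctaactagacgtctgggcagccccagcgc
Erbb2 (chr11:98412234-98412533, plus strand): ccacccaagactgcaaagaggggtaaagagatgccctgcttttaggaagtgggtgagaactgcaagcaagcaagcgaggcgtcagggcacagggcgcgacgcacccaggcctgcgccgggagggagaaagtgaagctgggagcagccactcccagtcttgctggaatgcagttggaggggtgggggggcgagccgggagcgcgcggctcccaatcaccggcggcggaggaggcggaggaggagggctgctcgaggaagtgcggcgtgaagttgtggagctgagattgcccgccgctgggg
Erbb4 (chr1:69108010-69108309, minus strand): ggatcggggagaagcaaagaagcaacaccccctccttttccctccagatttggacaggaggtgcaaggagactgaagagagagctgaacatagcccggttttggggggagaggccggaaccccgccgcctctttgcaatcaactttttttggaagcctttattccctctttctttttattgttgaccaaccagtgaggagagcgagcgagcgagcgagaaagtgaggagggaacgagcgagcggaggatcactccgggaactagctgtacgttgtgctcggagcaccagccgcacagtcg
Fgfr3 (chr5:33721474-33721773, plus strand): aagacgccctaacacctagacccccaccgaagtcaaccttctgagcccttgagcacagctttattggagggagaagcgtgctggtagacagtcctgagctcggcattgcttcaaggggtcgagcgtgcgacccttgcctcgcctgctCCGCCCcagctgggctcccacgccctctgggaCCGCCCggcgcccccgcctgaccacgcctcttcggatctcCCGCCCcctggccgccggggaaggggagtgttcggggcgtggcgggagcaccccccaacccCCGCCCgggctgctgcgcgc
The Egfr window held 1 GC box and the Fgfr3 window 4, while those of Erbb2 and Erbb4 held 0. At least 1 GC box was found in 35.7% of all 32851 RefSeq promoter windows of the same length. A TATA motif (TATAAA or TTTATA) was found in none of the 4 windows and in 13.6% of all. The 4 windows were richer in CpG pairs than most promoters, with 15 in Egfr, 21 in Erbb2, 17 in Erbb4 and 26 in Fgfr3 against a median of 7. These matches describe letters in the reference, and no binding or methylation was measured. RefSeq gives a further start for Fgfr3, whose window (chr5:33722056-33722355) held 30 CpG pairs, and 1 start for Fgfr2, whose window (chr7:130266759-130267058) held 4 CpG pairs and 0 GC boxes. The set of promoter sequences used had no entry for Fgfr1, the receptor with the larger rise.

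Egfr, the receptor for the EGF in the medium, was lower in ATRX KO. Egfr (ENSMUSG00000020122.16, chromosome 11, 16752203 to 16918158, GRCm38) measured 5.92, 6.14 and 6.55 RPKM in the ATRX WT libraries, from 1430, 1605 and 1673 reads. The ATRX KO libraries gave 1.34, 1.501 and 1.20 RPKM, from 261, 253 and 160 reads. All ATRX KO libraries lay below all ATRX WT libraries, and the highest of them was less than the lowest ATRX WT value by more than the spread of either group. Mean levels of 6.20 ± 0.322 RPKM in ATRX WT and 1.35 ± 0.152 RPKM in ATRX KO (SD, n = 3) left 21.7% of the wild-type amount. The fall was -2.20 in log2 units (SE 0.09, limma adjusted p = 2.6e-08). By level Egfr lay above 35.6% to 37.9% of genes in ATRX WT and above 17.2% to 19.1% in ATRX KO.

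Erbb2, the ligandless partner receptor, moved the opposite way. Erbb2 (ENSMUSG00000062312.5, chromosome 11, 98412470 to 98437716) stood at 1.34, 1.28 and 1.45 RPKM in ATRX WT and at 2.52, 2.60 and 2.48 RPKM in ATRX KO. The 3 ATRX KO values lay close together and above all ATRX WT values. Erbb2 rose from 1.36 ± 0.085 to 2.53 ± 0.061 RPKM (log2 difference 0.89, SE 0.08, limma adjusted p = 4.3e-06). Each library gave 252 to 381 reads, so counting error alone was 5.1% to 6.3% of each value. The size of the difference depended on scaling, at 1.49 after quantile normalization and 0.58 with 1 RPKM added before the log, and the call held in each.

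Erbb4, the neuregulin receptor, was detected in ATRX WT alone. Erbb4 (ENSMUSG00000062209.15, chromosome 1, 68032186 to 69108059) gave 92, 115 and 98 reads in the ATRX WT libraries, or 0.576, 0.665 and 0.581 RPKM. It had 0 reads in each ATRX KO library. Against a floor of 3 reads over the ATRX KO group, which equals 0.0091 RPKM, the ATRX KO level was at least 66.6-fold lower. With every value below 1 RPKM the gene did not pass the filter. In a fit of all 13069 genes, where 89.5% passed and 47% fell, its limma adjusted p was 4e-09. A log2 difference for a gene at 0 reads depends on the prior count and is not given as its size.

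Fgfr1 was the most abundant receptor of the set in every library and rose in ATRX KO. Fgfr1 (ENSMUSG00000031565.18, chromosome 8, 25518789 to 25574785) measured 43.5, 42.8 and 44.1 RPKM in the ATRX WT libraries. The ATRX KO libraries gave 126, 116 and 120 RPKM, from 12475 to 19189 reads a library. The means were 43.5 ± 0.648 and 121 ± 5.01 RPKM (SD, n = 3 each), a ratio of 2.78. Every ATRX KO library was above every ATRX WT library (log2 difference 1.47, SE 0.03, limma adjusted p = 6.2e-10). It lay above 85.3% to 85.7% of genes in ATRX WT and above 95.1% to 95.4% in ATRX KO. Counting error was 0.7% to 1.1% of each value, so Fgfr1 is the receptor measured with the greatest precision here.

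Fgfr3, a receptor of astroglia and progenitors, fell furthest of the tested receptors. Fgfr3 (ENSMUSG00000054252.18, chromosome 5, 33721724 to 33737068) stood at 4.22, 4.11 and 4.37 RPKM in ATRX WT, from 696, 734 and 763 reads. In ATRX KO it stood at 0.383, 0.269 and 0.274 RPKM, from 51, 31 and 25 reads. ATRX KO replicate 1 was the highest of its group, but its 95% counting interval (0.285 to 0.504 RPKM) overlapped that of replicate 2 (0.183 to 0.382) and of replicate 3 (0.177 to 0.404). Fgfr3 in ATRX WT was 13.7 times the ATRX KO level (log2 difference -3.74, SE 0.14, limma adjusted p = 1.2e-08). Without ATRX KO replicate 1 the difference was -3.89, and with 1 RPKM added before the log it was -1.99, since that exceeds the ATRX KO level. The gene passed the filter through ATRX WT alone, so it could be tested only by being high there.

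Fgfr2 had the smallest difference on the deposited scale, but not after quantile normalization. Fgfr2 (ENSMUSG00000030849.18, chromosome 7, 130162451 to 130266263) measured 0.798, 0.834 and 0.901 RPKM in the ATRX WT libraries and 1.09, 0.986 and 1.15 RPKM in the ATRX KO ones. The groups did not overlap, although the lowest ATRX KO and highest ATRX WT library differed by less than their counting error, with 95% intervals of 0.828 to 1.16 and 0.778 to 1.04 RPKM. With 127 to 191 reads a library it narrowly missed the filter and has no call. In the fit of all 13069 genes, where 42.5% rose, the log2 difference was 0.34 (95% interval 0.10 to 0.58, limma adjusted p = 0.012). When libraries were scaled by their summed table reads the difference was 0.15 (limma adjusted p = 0.2), and after quantile normalization 1.29 (adjusted p = 2.3e-06), where Fgfr1 was at 1.28. These last fits of all genes under another scaling were chosen after seeing the data.

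Over the set, 2 tested receptors rose (Erbb2 and Fgfr1) and 2 fell (Egfr and Fgfr3). Passing the test for 4 of 4 is near the share of all genes tested, 89.5%, and the same holds for the groups, which did not overlap for 6 of 6 receptors and for 90.5% of all genes of the table (43% with ATRX KO higher and 47.5% with it lower). An absolute log2 difference of at least 1 past the threshold was met by 36.8% of tested genes, and by Egfr and Fgfr1 among the 3 receptors that passed the filter in both groups' libraries. Among tested genes the absolute difference of Egfr was larger than that of 82.2%, Fgfr1 than 74.0% and Erbb2 than 59.9%. Fgfr3 is given no such rank and lends no weight to these counts, since it entered the tested genes only by being high in ATRX WT. The plot of receptor levels by library shows how far apart the values of each gene lay.

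**Figure D1:**
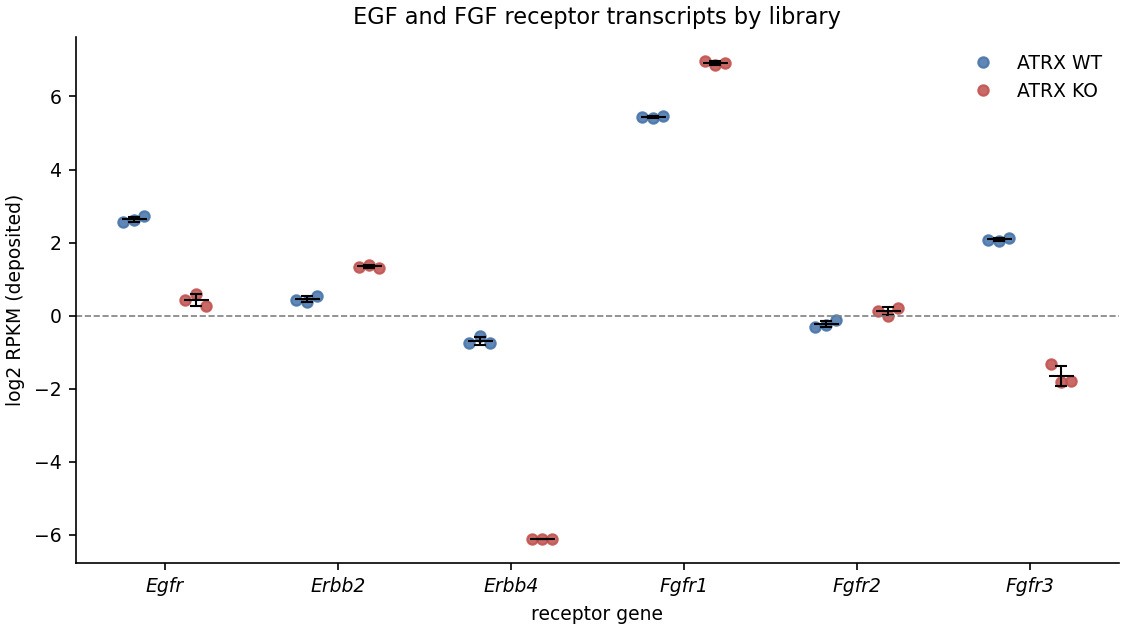
Deposited log2 RPKM of 6 receptor genes (horizontal axis), 1 point a library, with black bars for the mean and SD of 3 libraries, ATRX WT in blue and ATRX KO in red, and a dashed line at log2 RPKM 0. Erbb2, Fgfr1 and Fgfr2 are higher in the ATRX KO libraries and Egfr, Erbb4 and Fgfr3 lower, and the ATRX KO points of Erbb4 lie at the floor that stands for 0 reads.

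The order of levels per length differed between the genotypes. In ATRX WT it ran Fgfr1, Egfr, Fgfr3, Erbb2, Fgfr2, Erbb4, and in ATRX KO Fgfr1, Erbb2, Egfr, Fgfr2, Fgfr3, Erbb4. No neighbours in either order overlapped over the 3 libraries of a group. The closest were Egfr and Fgfr2 in ATRX KO, with mean log2 RPKM values 0.32 apart, and Fgfr2 and Erbb4 in ATRX WT, 0.46 apart. Egfr and Erbb2 changed places. In ATRX WT, Egfr was 4.41, 4.79 and 4.53 times the level of Erbb2, and in ATRX KO it was 0.532, 0.578 and 0.483 times that level (exact permutation test of the log2 ratio, two-sided p = 0.1, the smallest that 3 against 3 allows).

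As shares of the summed RPKM of the measured ErbB receptors, Egfr held 75.9% ± 0.42 in ATRX WT and 34.6% ± 2.02 in ATRX KO (SD over 3 libraries). Erbb2 held 16.6% ± 0.68 and 65.4% ± 2.02, and Erbb4 7.45% ± 0.74 and 0%. The summed ErbB level was 8.17 ± 0.379 RPKM in ATRX WT and 3.88 ± 0.212 RPKM in ATRX KO. For the FGF receptors, Fgfr1 held 89.5% ± 0.20 in ATRX WT and 98.9% ± 0.06 in ATRX KO. Fgfr3 held 8.72% ± 0.13 and 0.252% ± 0.042, and Fgfr2 held 1.74% and 0.879%. The summed FGF receptor level was 48.5 ± 0.814 RPKM in ATRX WT and 122 ± 5.11 RPKM in ATRX KO, 2.52 times as high. Each of these shares and sums separated the groups fully, and each had p = 0.1 in the exact permutation test (two-sided), the smallest possible with 3 against 3. The plot of shares shows Erbb2 in the place of Egfr as the larger ErbB component in ATRX KO.

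**Figure D2:**
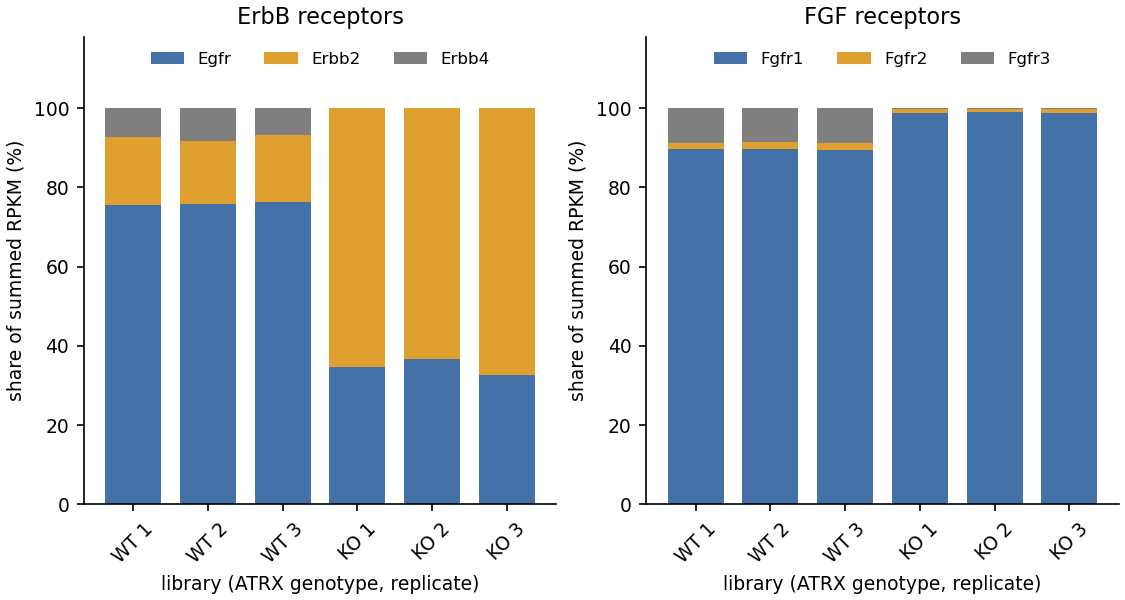
Share (%) of the summed RPKM of the measured ErbB receptors (left) and FGF receptors (right) in each library, stacked to 100%, with the ATRX WT libraries first. Egfr takes 75.5% to 76.4% of the ErbB sum in ATRX WT and 32.6% to 36.6% in ATRX KO, while Fgfr1 takes over 89% of the FGF receptor sum in every library.

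Ligands that the cells could supply themselves went both ways, with Areg, Ereg, Fgf2 and Fgf7 among those that rose in ATRX KO and Nrg2 among those that fell. Of the 11 EGF family ligands listed, 6 were tested, with 4 rises, 2 falls and a median log2 difference of 0.92. All tested genes gave 43.6% rises and 45.9% falls. Mean log2 RPKM reached 0 for all 6 in ATRX KO and for 5 in ATRX WT. Btc passed the filter through ATRX KO alone, so it lends no weight to the count. The EGF family ligands Egf (30 reads in ATRX KO against 145 in ATRX WT) and Nrg1 (30 against 193) were in the table but did not pass the filter, and both had fewer reads in ATRX KO. Amphiregulin, Areg, an Egfr ligand, had the highest level of the list in ATRX KO, while in ATRX WT it stood below Hbegf, another Egfr ligand, at 96.8 RPKM. Areg stood at 55.0, 54.6 and 51.5 RPKM in ATRX WT and at 372, 358 and 367 RPKM in ATRX KO (log2 difference 2.77, SE 0.03, limma adjusted p = 1.9e-11). Epiregulin, Ereg, which binds Egfr and Erbb4, was at 12.3 to 12.8 RPKM in ATRX WT and 33.1 to 38.4 RPKM in ATRX KO (log2 difference 1.52, SE 0.05). Betacellulin, Btc, rose from 0.504 to 2.79 RPKM (2.43, SE 0.15). The neuregulin Nrg2 fell from 3.65 to 1.88 RPKM (-0.95, SE 0.09). Tgfa, another Egfr ligand, fell by 0.23 (limma adjusted p = 0.042), but was higher by 0.46 after quantile normalization, which gave 5 rises and 1 fall for the list.

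Among 22 genes of the FGF family, 7 were in the table and 5 were tested, with 4 rises, 1 fall and a median log2 difference of 3.36. Of all tested genes 43.6% rose and 45.9% fell. Mean log2 RPKM reached 0 for all 5 in ATRX KO and for 4 in ATRX WT. Fgf7 passed the filter through ATRX KO alone, so no weight is put on the count or the median. Fgf2, the basic FGF that cultures of this kind depend on, stood at 1.38, 0.921 and 1.02 RPKM in ATRX WT and at 10.9, 12.8 and 12.6 RPKM in ATRX KO (log2 difference 3.36, SE 0.14, limma adjusted p = 2e-08). Fgf7, a paracrine factor made by mesenchymal cells, went from 22, 19 and 25 reads to 2489, 2455 and 1858 reads (log2 difference 7.16, SE 0.11). Fgf21, an endocrine FGF, rose from 1.45 to 25.9 RPKM (4.10, SE 0.07). Fgf1, the member with the highest mean log2 RPKM over all 6 libraries, rose from 8.01 to 10.2 RPKM (0.35, SE 0.05). The fall was Fgf11 (-1.43, SE 0.09), an FGF homologous factor that stays inside the cell and is no receptor ligand. Below the filter, Fgf12 had 2 reads in ATRX KO against 376 in ATRX WT, and Fgf15 42 against 190, so both were lower in ATRX KO. The mesenchymal marker sum given above was higher in the same libraries, and its part in the ligand rises was not tested.

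Partners of the FGF receptors and the heparan sulfate that FGFs need went both ways. Of 12 partner genes 8 were tested, with 3 rises, 5 falls and a median of -0.43, and after quantile normalization 3 rose and 3 fell. All tested genes gave 43.6% rises and 45.9% falls. Flrt2 and Fgfbp1 passed the filter through ATRX KO alone, so they lend no weight to the partner count. Flrt2, a membrane protein that binds FGF receptors, rose from 0.813 to 17.3 RPKM (log2 difference 4.40, SE 0.06). Fgfbp1, a carrier that frees FGFs from the matrix, went from 3 reads over the ATRX WT libraries to 129 over the ATRX KO ones, a ratio of 65.6 (95% counting interval 21.96 to 322). The adhesion molecules Cdh2 and Ncam1, which can bind FGF receptors, fell by 1.70 and 1.30. Fgfr1op2, highest by mean log2 RPKM over all 6 libraries though not within ATRX WT, rose by 0.34, but is named for a fusion with Fgfr1 and is not known as a partner of the receptor. Of 12 heparan sulfate core proteins 11 were tested, 8 rose and 3 fell (median 0.97), with Hspg2 (perlecan) higher by 4.72 and Sdc1 by 1.63, and Gpc2 lower at -3.13. The glypican Gpc5 had 2 reads in ATRX KO against 462 in ATRX WT, a ratio of 151 (41.7 to 1254). Gpc5 passed the filter through ATRX WT alone. Sdc4, the core with the highest level, rose from 92.5 to 149 RPKM.

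Among heparan sulfate enzymes 15 of 20 were tested, and 8 rose, 5 fell and 2 were not called (median 0.14). Rises made up 43.6% and falls 45.9% of all tested genes. With libraries scaled by summed table reads 7 rose and 6 fell (median -0.06), and after quantile normalization 9 and 5 (0.48). Below the filter, Ndst4 had 38 reads in ATRX KO against 301 in ATRX WT and Hs3st1 2 against 160, while Extl1 had more in ATRX KO (222 against 119). The sulfotransferases Ndst3 (6.01, SE 0.14) and Hs6st2 (3.79, SE 0.12) rose most. Hs3st2, another sulfotransferase, had 0 reads in ATRX KO against 1594 in ATRX WT, at least 348-fold lower. Ndst3 and Hs6st2 passed the filter through ATRX KO alone and Hs3st2 through ATRX WT alone, so they lend no weight to the counts. Extl2 fell by 0.75 and Sulf2, which trims sulfate from the chains and had the highest level of the list in ATRX WT but not in ATRX KO, by 0.61. All 8 ligand sheddases and their regulators were tested, and 5 rose and 3 fell (median 0.40). Rhbdf2, which brings the sheddase Adam17 to the cell surface, rose by 4.17, and Adam19 by 1.46. Rhbdf2 passed the filter through ATRX KO alone and Rhbdl2 through ATRX WT alone. Adam12 fell from 42.4 to 2.45 RPKM and Rhbdl2 by 0.91 (-0.14 and no call after quantile normalization), while Adam10, the highest in ATRX WT but not in ATRX KO, differed by -0.09 (limma adjusted p = 0.047).

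Adaptors that carry the signal from the receptors were split. Of 24 tested of 27, 11 rose and 9 fell while 4 had no call (median -0.01), and the split was 7 to 14 when libraries were scaled by their summed table reads and 8 to 10 after quantile normalization. All tested genes gave 43.6% rises and 45.9% falls. Shc1, the widely expressed Shc adaptor, rose from 13.7 to 60.3 RPKM (log2 difference 2.13, SE 0.03), while the neural forms Shc3 and Shc4 fell by 3.57 and 3.46. Plcg2, a phospholipase C best known from blood cells, rose by 2.93. Stat3, highest by mean log2 RPKM over all 6 libraries but within neither group, stood at 46.6 ± 1.32 RPKM in ATRX KO and 43.3 ± 0.816 RPKM in ATRX WT, and its log2 difference of 0.10 became -0.09 and -0.04 under those scalings.

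Genes listed as brakes on ErbB receptors more often rose than fell in ATRX KO, some of them by little. Of 15 tested of 16, 11 rose and 2 fell while 2 had no call (median 1.01), or 9 rises and 4 falls when libraries were scaled by their summed table reads. Over all tested genes 43.6% rose and 45.9% fell. Usp8, among the 11, rose by 0.11 but was at -0.09 under that scaling. Errfi1 (Mig6), which binds and blocks the Egfr kinase, stood at 9.29, 8.74 and 8.68 RPKM in ATRX WT and at 104, 111 and 109 RPKM in ATRX KO (log2 difference 3.60, SE 0.04, limma adjusted p = 1e-11). Cblb, a ubiquitin ligase that marks receptors for destruction, rose by 1.94 and its relative Cbl fell by 0.57. Chosen after their values were seen, Lrig1, which promotes ErbB receptor turnover, was higher by 1.502, and its relative Lrig3 by 1.92. Their relative Lrig2 had no call (0.13, limma adjusted p = 0.07).

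The feedback inhibitors of FGF receptor signalling moved the other way. Of 9 tested of 10, 8 fell and 1 rose, with a median of -0.71, and this split was the same under both other scalings. Falls made up 45.9% of all tested genes and rises 43.6%. Spry1, a Sprouty inhibitor of RAS activation, stood at 160, 157 and 162 RPKM in ATRX WT and at 34.8, 35.4 and 34.98 RPKM in ATRX KO (log2 difference -2.18, SE 0.03, limma adjusted p = 1.5e-11). Spry2 stood at 116 to 117 RPKM in ATRX WT and at 37.5, 39.9 and 40.6 RPKM in ATRX KO (-1.57, SE 0.03). Il17rd (Sef), a membrane inhibitor of FGF receptors, fell by 1.15. Dusp6, the ERK phosphatase and the most abundant of the list, stood at 442, 446 and 444 RPKM in ATRX WT and at 267, 274 and 274 RPKM in ATRX KO (-0.71, SE 0.03). The rise was Spred1 (0.35, SE 0.04).

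Other genes raised by ERK did not move as a block. All 16 listed were tested, 5 of them also on the list of inhibitors, and 6 rose, 9 fell and 1 gave no call (median -0.23). For this list and the next, the shares of all tested genes were 43.6% rises and 45.9% falls. The AP-1 factor Fosl1 rose from 3.14 to 97.9 RPKM (log2 difference 4.95, SE 0.07) and the ephrin receptor Epha2 from 3.93 to 136 RPKM (5.11, SE 0.06). Epha4 had 0 reads in ATRX KO against 2008 in ATRX WT, at least 439-fold lower, and passed the filter through ATRX WT alone. Ccnd1, cyclin D1, the most abundant, went from 671 to 410 RPKM (-0.71). Among 50 other receptor tyrosine kinases, 25 were tested, 12 rose, 10 fell and 3 gave no call. Their median absolute difference was 2.41, against 0.68 over all tested genes. Some of the 25 passed the filter only through the group where they were high, so no weight is put on the larger median. Mean log2 RPKM reached 0 for 21 of them in ATRX KO and for 23 in ATRX WT. The 4 tested EGF and FGF receptors ran from 0.89 to 3.74, the largest being Fgfr3, which passed through ATRX WT alone. Pdgfrb, a mesenchymal receptor, rose by 8.14, Kit fell by 6.26, and Ryk, highest by mean log2 RPKM over all 6 libraries but within neither group, differed by -0.01 and gave no call, though it was at -0.21 and -0.16 under the other scalings.

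**Figure D3:**
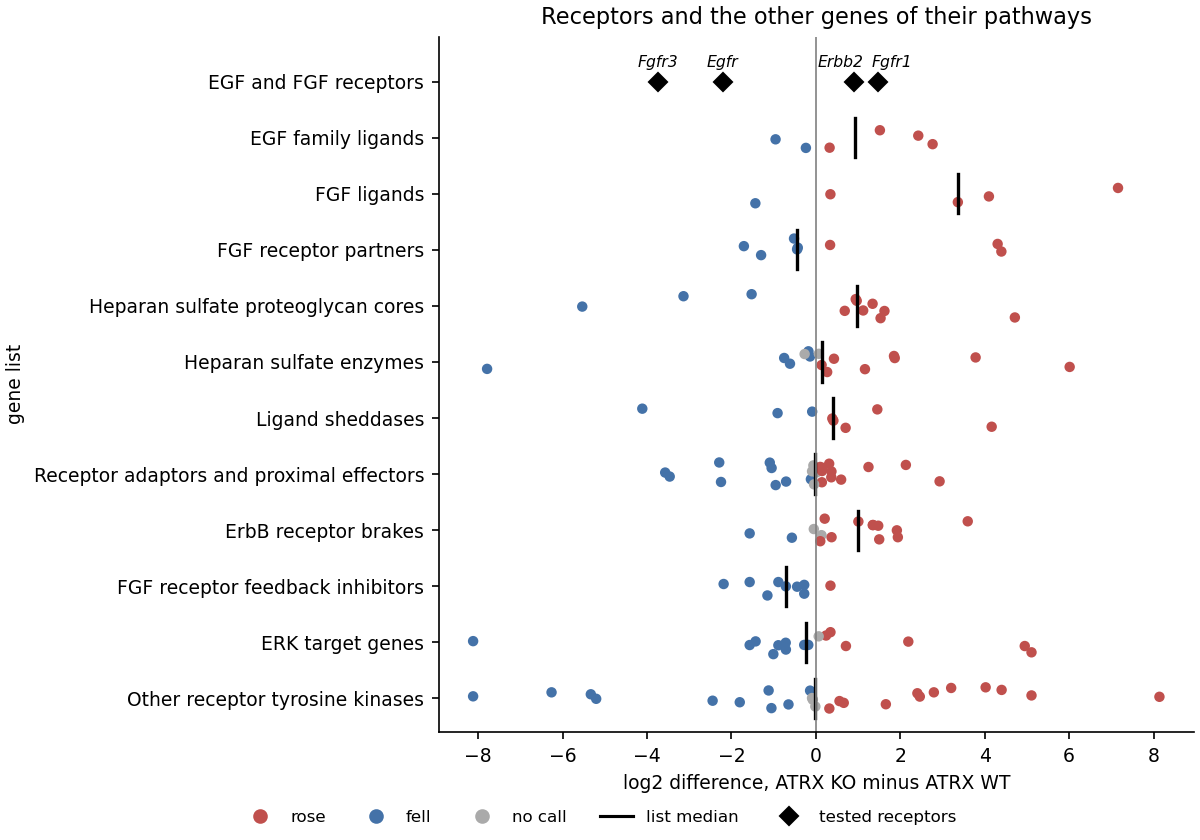
Log2 difference, ATRX KO minus ATRX WT (horizontal axis), for the 4 tested receptors (black diamonds) and each tested gene of 11 pathway lists, coloured by whether it rose, fell or gave no call, with a black line at each list's median. FGF receptor feedback inhibitors lie left of 0 but for 1 gene and ErbB brakes mostly right of it, and genes with 0 reads in ATRX KO (Epha4, Hs3st2) are drawn at fitted values that depend on the prior count.

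Setting genes with 0 reads in a group at their bound changed no list median. Some genes stand on more than 1 list, Spry2 on 3 of them, so the lists are not independent counts. Each list's count stands beside the shares over all tested genes, 43.6% rises and 45.9% falls, and no list was tested as a set.

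Genes beside the receptors on the chromosome moved in both directions. Within 1 Mb of Egfr 8 other genes were tested, with 2 rises, 6 falls and a median of -0.33. The shares over all tested genes were 43.6% rises and 45.9% falls. The nearest, Eldr, a long non-coding RNA 20.8 kb away, fell by 3.26, and Cnrip1, 138 kb away, by 4.44, while Sec61g on the other side differed by -0.26 (these were chosen after their values were seen). Within 1 Mb of Erbb2, 38 genes gave 21 rises, 14 falls and 3 without a call with a median of 0.16. Mien1, which overlaps Erbb2 in the RefSeq annotation, fell by 1.29 while Erbb2 rose. Around Fgfr1 the median of 15 genes was -0.12, and around Fgfr3 that of 26 genes was -0.25, with 16 falls and 9 rises. Around Fgfr2 the median of 6 genes was 0.15, and the single gene tested near Erbb4, Lancl1, differed by -0.43. The plot of neighbouring genes sets these values beside each receptor.

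**Figure D4:**
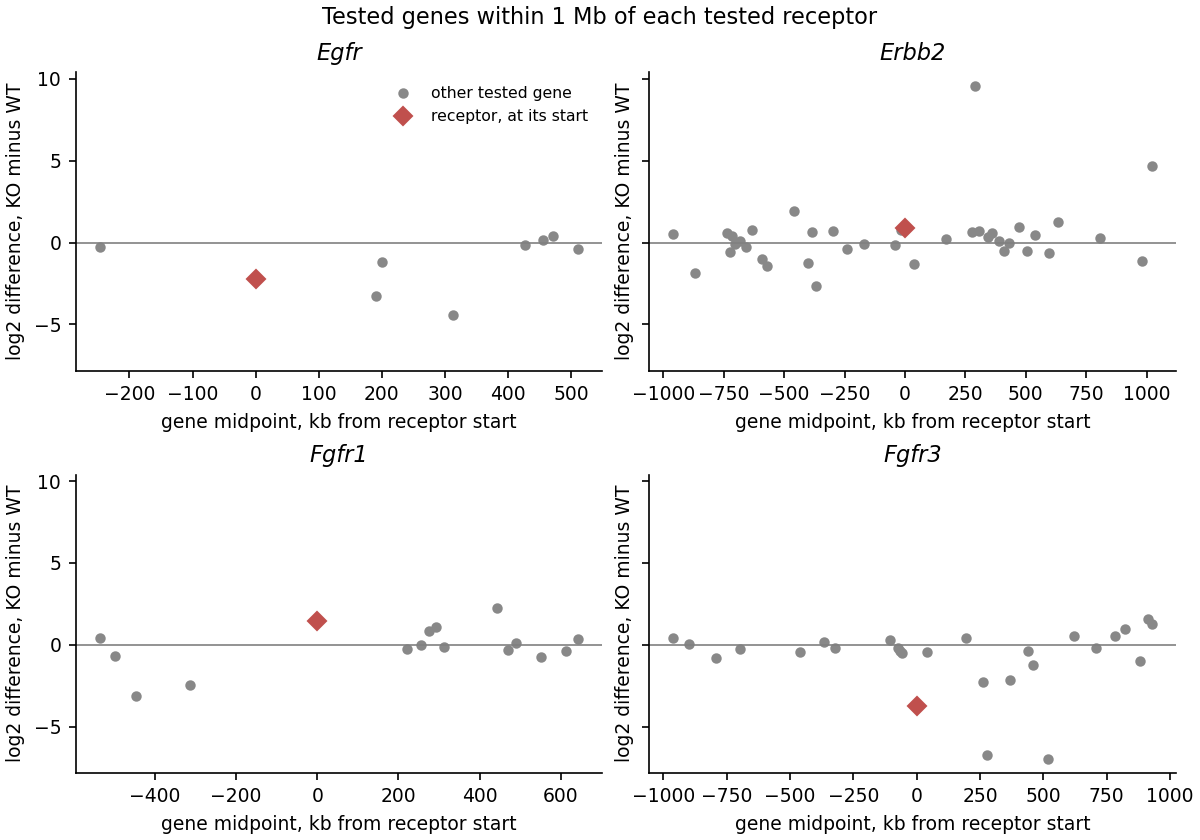
Log2 difference, ATRX KO minus ATRX WT (vertical axis), of every other tested gene within 1 Mb (grey points) against the distance of its midpoint from the receptor's start in kb, in the direction of transcription, for the 4 tested receptors (red diamonds at 0). Fgfr1 lies above and Fgfr3 below most of their neighbours, while the 3 nearest genes downstream of Egfr are lower in ATRX KO as Egfr is.

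The genes whose profile lay closest to each tested receptor were found by the Euclidean distance between log2 RPKM values over the 6 libraries, after each gene's mean was subtracted. For Egfr these were Slc46a1 (distance 0.10) and Depdc7 (0.12), for Erbb2 Tmem261 (0.04) and Kri1 (0.07), for Fgfr1 Aurkaip1 (0.04) and Pdlim7 (0.05), and for Fgfr3 Lmo1 (0.10) and Dpf3 (0.17). With 2 genotypes, such likeness mostly records a difference of the same size between the groups.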

How the data were processed

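Expression was deposited by the authors as log2 RPKM, 1 column a library. Per the labels' protocols, stranded mRNA libraries from 4 ug of RNA were sequenced as 42-nt read pairs. STAR 2.5.3a, HTSeq 0.11.2, edgeR 3.20.9, Trim Galore and FastQC are named in the submitters' processing notes, as are the builds mm9 and mm10, with no role given. Whether counting used strand, and how low genes were removed, is not given in the sources used here.

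Whole reads were recovered from the steps of the deposited log2 values for 100% of genes (tolerance 0.0001 reads), with a prior count averaging 2 reads. Printed RPKM values are these reads over the authors' recovered library sizes and gene lengths. Those sizes came to 0.932 to 0.935 times the summed reads for ATRX KO and 1.07 times for ATRX WT. A gene was kept if 3 or more libraries reached log2 RPKM 0, and the 12201 kept were fitted with limma 3.58.1 (R 4.3.3; empirical Bayes with a trend, two-sided, Benjamini-Hochberg over all tested genes, threshold 0.05). The code was tested on simulated data. Shares and ratios were compared by exact permutation. Intervals and floors cover counting error only.

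Members and lists were chosen with earlier results of these data known. Named from each list were the 2 largest rises and falls past the threshold (3 for ligands and feedback inhibitors) whose groups do not overlap, and the tested gene with the highest mean log2 RPKM. Coordinates are from GENCODE M21 (GRCm38) transcripts of support level 1, and neighbours from RefSeq, where 12489 symbols matched. Replicates were distinct libraries, with chi-square per degree of freedom of 1.89 to 7.24 between pairs of a group. The largest was between ATRX KO replicates 1 and 2.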

Additional observations from a re-analysis of the deposited data

How the results depend on the processing

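Each of the 4 tested receptors kept its direction and its side of the threshold under all 15 alternatives, which were 6 libraries left out in turn, 2 other filters, 2 other scalings, 2 other pseudocounts, no variance trend, voom weights and the replicate block. Their log2 differences ranged from -2.40 to -1.62 for Egfr, 0.58 to 1.49 for Erbb2, 1.28 to 1.4997 for Fgfr1 and -3.93 to -1.99 for Fgfr3. The replicate numbers in the titles showed no sign of pairing the libraries (correlations of same-numbered deviations -0.05, 0.05 and -0.04). With 3 libraries a group this cannot exclude a pairing. With the replicate block the 4 calls held, at log2 differences of -2.20, 0.89, 1.47 and -3.74, and 10851 genes passed in place of 10925. Without a filter 6 receptors passed in place of 4, because Erbb4 and Fgfr2 were then tested. For Erbb4, tested only without the filter (adjusted p 2.9e-12 to 1.9e-07 over its alternatives there), the log2 difference of -5.42 became -3.81 after quantile normalization, -7.40 with a prior count of 0.5 reads and -0.68 with 1 RPKM added, since ATRX KO had 0 reads. For Fgfr2 the 0.34 became 1.29, 0.15 with libraries scaled by summed table reads and 0.17 with 1 RPKM added. Its call in all 13069 genes was lost under that scaling (0.15, adjusted p = 0.2) and held without each library (adjusted p 0.008 to 0.043). That scaling replaces the authors' library sizes, which were 0.932 to 0.935 times the summed reads in ATRX KO and 1.07 times in ATRX WT. It moved Fgfr1 as well, from 1.47 to 1.28. Why those sizes differ from the summed reads was not tested. Shares of reads in place of RPKM, which leave out gene length, moved the differences in share to 45.7 points for Erbb2, -5.25 for Erbb4, 8.42 for Fgfr1 and -7.49 for Fgfr3. Scaling by summed table reads moved the median of all tested genes from -0.02 to -0.22 and gave 4388 rises and 6689 falls, in place of 5321 and 5604. Depth limits Erbb4, Fgfr2 and, in ATRX KO, Fgfr3, with 0 to 191 reads a library.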
